A study of Mus musculus with 2 samples.

Results

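The SLAM receptor gene cluster of the mouse comprises 8 genes on chromosome 1: Ly9, Slamf7, Cd48, Slamf1, Cd84, Slamf6, Slamf9 and Slamf8. They were chosen by name from 21701 protein-coding genes of GENCODE M21. Each gene was taken with 25 kb to each side of its body, which is called its window below. The joined windows cover 514708 bp of mm10 in 4 blocks. They held 51 of the 97051 peaks of replicate 1 and 60 of the 108010 peaks of replicate 2, together with 168 of 276400 and 190 of 318156 footprints.

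Open chromatin was mapped by DNase-seq, which reads the ends of DNA that the enzyme DNase I cuts in nuclei; accessible DNA is cut often and appears as peaks. A footprint is a short run of bases inside accessible DNA that was cut less than its surroundings, as a bound protein can cause. The mice were females of the F1 cross of C57BL/6J and CAST/EiJ (B6CASTF1/J), 14 days old, and whole thymus was sampled; the labels number the animals differently under the same donor identifier. They form 1 group with 2 biological replicates and no treatment, mutation or control group. From the numbers they were taken as 2 animals, so if they were not, the SDs below measure technical spread. Every genome in the study therefore holds 1 C57BL/6J and 1 CAST/EiJ copy of the cluster, and the deposited tables do not separate the copies.

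SLAM receptors are surface proteins of blood cells with immunoglobulin domains. Most of them bind a copy of themselves on the neighbouring cell, and their tails recruit the small adaptor SAP, encoded by Sh2d1a, which brings in the kinase Fyn. In the thymus, contacts of this kind between immature thymocytes are known for their part in the selection of natural killer T cells and other innate-like T cells. Slamf1, Slamf6, Ly9 and Cd84 are such self-binding receptors known from T and B cells. CD48, encoded by Cd48, is held in the membrane by a lipid anchor and binds CD2 and CD244. Slamf7, also self-binding, is known from natural killer cells and plasma cells, and Slamf8 and Slamf9, which lack the adaptor-binding motifs in their tails, from myeloid cells.

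The genes lie in a row from 171588624 (the end of Ly9) to 171953170 (the end of Slamf6) on chromosome 1, with 24992 to 61868 bp between neighbours. Slamf9 follows after a gap of 522187 bp and Slamf8 after another 103182 bp. Ly9, Slamf7 and Slamf8 are on the minus strand and the other 5 on the plus strand. Because neighbours are close, the windows overlap, and a peak between 2 genes is counted in the window of each.

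The regions shown next carry the main observations of the text: promoters of the receptors with the strongest promoter peaks, some of the strongest regions away from them, and regions with a motif under a footprint of both animals. The letters are the mm10 reference, which is C57BL/6J. CAST/EiJ alleles were not seen. Each stretch lies in peaks of both replicates, reads 5′ to 3′ on the strand named, and has in capitals the bases that lay under a footprint in both replicates.
Ly9, last bases before the outermost start (chr1:171607411-171607500, minus strand): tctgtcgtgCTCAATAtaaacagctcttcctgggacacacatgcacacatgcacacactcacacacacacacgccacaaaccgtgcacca
Slamf1, last bases before the start (chr1:171767041-171767126, plus strand): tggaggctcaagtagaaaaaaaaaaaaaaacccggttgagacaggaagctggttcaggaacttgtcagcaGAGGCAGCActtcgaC
Slamf1 intron 3 (chr1:171782621-171782780, plus strand): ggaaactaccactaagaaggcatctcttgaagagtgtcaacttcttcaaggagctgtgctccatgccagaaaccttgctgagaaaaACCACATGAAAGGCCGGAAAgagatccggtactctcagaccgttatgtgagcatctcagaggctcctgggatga
Cd48 intron 2 (chr1:171699121-171699280, plus strand): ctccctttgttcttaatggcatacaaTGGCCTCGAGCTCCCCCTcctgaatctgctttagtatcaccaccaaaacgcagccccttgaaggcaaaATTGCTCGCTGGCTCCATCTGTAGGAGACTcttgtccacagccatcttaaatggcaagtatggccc
Slamf6 intron 1 at the Gm37065 start (chr1:171919321-171919520, plus strand): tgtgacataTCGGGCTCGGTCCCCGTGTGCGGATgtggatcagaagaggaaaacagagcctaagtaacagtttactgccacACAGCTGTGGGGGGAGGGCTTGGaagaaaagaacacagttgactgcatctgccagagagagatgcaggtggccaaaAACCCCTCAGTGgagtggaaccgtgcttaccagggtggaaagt
Upstream of Ly9 (chr1:171610161-171610320, plus strand): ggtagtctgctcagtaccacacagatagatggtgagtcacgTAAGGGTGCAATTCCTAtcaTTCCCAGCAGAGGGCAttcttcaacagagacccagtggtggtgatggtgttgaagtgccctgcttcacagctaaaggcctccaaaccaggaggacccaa
Upstream of Cd84 (chr1:171826281-171826480, plus strand): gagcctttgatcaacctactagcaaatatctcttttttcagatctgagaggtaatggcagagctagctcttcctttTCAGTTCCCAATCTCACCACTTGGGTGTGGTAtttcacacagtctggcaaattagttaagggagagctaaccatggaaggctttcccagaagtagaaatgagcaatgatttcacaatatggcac

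A promoter was called open when both replicates had a peak whose midpoint was no more than 500 bp from an annotated transcription start site (TSS) of the gene. This held for Ly9, Cd48, Slamf1, Cd84 and Slamf6, or 5 of 8 genes, beside 58.0% of all protein-coding genes. Taken alone, replicate 1 had a promoter peak at 6 of 8 members, beside 60.0% of all genes, and replicate 2 at 5 of 8, beside 60.8%. The share of the cluster lies near that of all genes and is not a result about the cluster. Slamf9 had a promoter peak in replicate 1 only, and Slamf7 and Slamf8 had none in either animal. With both animals giving the same call for 7 of 8 genes, Slamf9 was the only member whose promoter call differed between them.

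Strength is the authors' signal value of a peak. The sources used here do not give its scale, so each strength is followed by its percentile among all peaks of the same replicate, where 100 is the strongest. Slamf1, the receptor after which the family is named, had a promoter peak over its only TSS with a strength of 4.16 (percentile 87.5) in replicate 1 and 1.70 (78.8) in replicate 2. Both peaks held 5 footprints. The 86 bases upstream of the TSS shown above lie in both peaks and had 10 bases under a footprint of both animals.

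The Ly9 promoter ranked about as high, with a strength of 3.58 (percentile 85.7) in replicate 1 and 2.19 (83.7) in replicate 2. Its replicate 1 peak, 180 bp wide, held 7 footprints, the most of any peak in the windows of that replicate, and the replicate 2 peak held 5. All 3 annotated Ly9 starts lie within 81 bp of each other. The lowest false discovery rate (FDR) within 500 bp of them was 1.27e-37 and 2.25e-25, the lowest of the 8 genes in both animals.

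Slamf6, which encodes Ly108, had 2 promoter peaks in replicate 1, the stronger of 1.5 (percentile 70.1), and a single peak 680 bp wide of 1.65 (78.2) in replicate 2. That wide peak held 11 footprints, the most in the windows of replicate 2. At Cd84 the promoter peak had a strength of 1.34 (percentile 67.2) and 1.26 (71.6). It lay at the 3 inner starts of the gene, 868 to 936 bp downstream of the outermost TSS at 171839697, and the outermost TSS had no peak in either replicate. Counted at outermost starts alone, Cd84 would not be open.

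The Cd48 promoter was the weakest of those open in both animals, and the animals differed most there. Replicate 1 had 2 peaks, of 0.634 (percentile 40.8) and 0.519 (32.0), and replicate 2 had 1 peak of 1.04 (66.4) that overlapped both. The lowest FDR was 4.18e-04 in replicate 1 and 9.24e-15 in replicate 2. Under the stricter of the authors' peak lists Cd48 lost its call and 4 members stayed open. The outermost start of the non-coding gene A630035G10Rik lies 76 bp from that of Cd48, on the opposite strand, so the peak cannot be assigned to either transcript.

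The Slamf9 peak in replicate 1 had a strength of 0.608 (percentile 38.9), lay 155 bp upstream of the TSS and held 3 footprints. Its lowest FDR was 0.00167, over 175 bases listed under 0.05, and no base within 500 bp of the TSS was listed in replicate 2. At Slamf7 no base within 500 bp of its 4 starts was listed under an FDR of 0.05 in either animal, and the same held for the single start of Slamf8. The sources used here do not state the depth of the libraries, so these 2 promoters were not detected as open, which does not show that they are closed. In a bulk tissue, fewer cells of a type and less accessibility per cell cannot be told apart.

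Among all genes with a promoter peak, the median percentile of the strongest promoter peak was 90.9 in replicate 1 (25% to 75% range 73.9 to 96.4) and 91.5 in replicate 2 (73.9 to 96.7). All member promoters lay below these medians in both animals. Ly9 and Slamf1 were inside the 25% to 75% range in both replicates and Slamf6 in replicate 2 only. Cd48 and Cd84 were under the range in both.

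**Figure D1:**
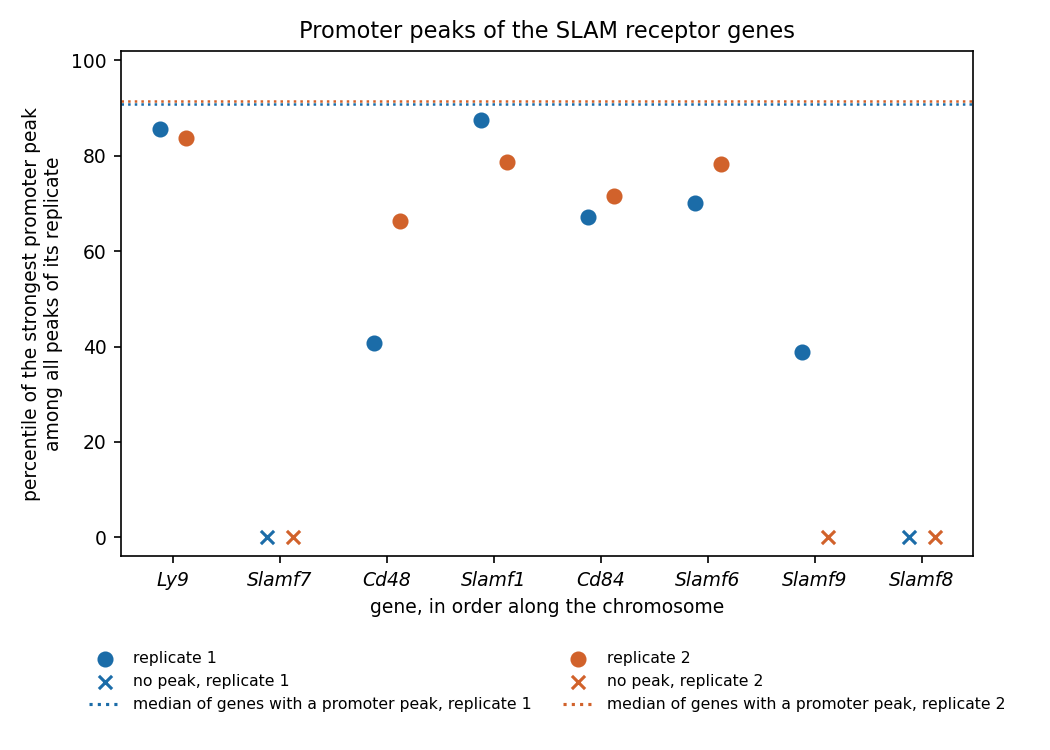
Strength percentile of the strongest promoter peak (vertical axis, 100 = strongest of the replicate) for the 8 genes in chromosome order, by replicate. Crosses at 0 mark genes with no promoter peak and dotted lines the median of all genes with one; Ly9 and Slamf1 lie at 78.8 to 87.5, below the lines, and Slamf7 and Slamf8 have crosses in both animals.

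The member promoters are poor in CpG dinucleotides. From 250 bp before to 50 bp after the outermost TSS, the ratio of observed to expected CpG ranged from 0.162 (Slamf6) to 0.407 (Slamf7), with a median of 0.278, against 0.557 over all genes. Slamf7, with no promoter peak, had the highest ratio and Slamf6, with an open promoter, the lowest. Of the 8698 genes with a ratio no higher than that of Slamf7, 19.2% had an open promoter, beside the 5 of 8 members. For Cd84 the ratio describes the outermost TSS, which had no peak, and not the inner starts counted as open. This subset was chosen after the values were seen, and no test was made.

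Slamf6 stood out by the amount of open DNA around its start. Between 1.5 kb upstream and 5 kb downstream of the outermost TSS, 9 peaks covered 2387 bp in replicate 1 and 12 peaks covered 4385 bp in replicate 2, or 36.7% and 67.5% of the region. The median over all genes was 220 and 272 bp, and Slamf6 lay at percentile 99.5 and 99.8 of genes. The region held 27 and 29 footprints. Cd48 came next in the cluster, with 982 and 1077 bp (percentiles 90.8 and 87.9). Ly9, Slamf1 and Cd84 had 180 bp each in replicate 1 and 200, 247 and 478 bp in replicate 2. This region was not among the planned measures, and no other width is given. It closely spans the run of Slamf6 loci from 1226 bp upstream to 4514 bp downstream. The ranks are therefore a description of peaks already seen, and no test was made.

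The strongest peak near Slamf6 was not the promoter peak. It lay in intron 1 at chr1:171919301-171919540, 1712 bp downstream of the nearest Slamf6 start and 64 bp upstream of the start of Gm37065, an antisense transcript that runs back across the Slamf6 promoter. Its strength was 13.7 (percentile 97.2) in replicate 1 and 4.07 (92.4) in replicate 2. Each animal had 4 footprints there, 3 of the replicate 1 footprints overlapped one of replicate 2, and 60 bases were under a footprint in both, as the capitals of its sequence show. The middle run of capitals contains the E-box string CAGCTG. With promoters widened to 2000 bp the peak counts for Slamf6, and the mean percentile of the gene moved from 74.1 to 94.8.

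Further into the gene, the intron 1 region chr1:171920861-171922000 had a strength of 2.47 (percentile 80.4) and 1.68 (78.5), with 6 and 9 footprints. Introns 3 and 6 held weaker regions found in both animals, at percentile 54.7 and 47.9 and at 72.9 and 69.2. In the last exon, within the 3′ UTR, a peak of percentile 58.5 was found in replicate 1 only. The gene body had 10 peaks in replicate 1 and 11 in replicate 2, the most of the 8 genes, at 2.80 and 3.09 per 10 kb.

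**Figure D2:**
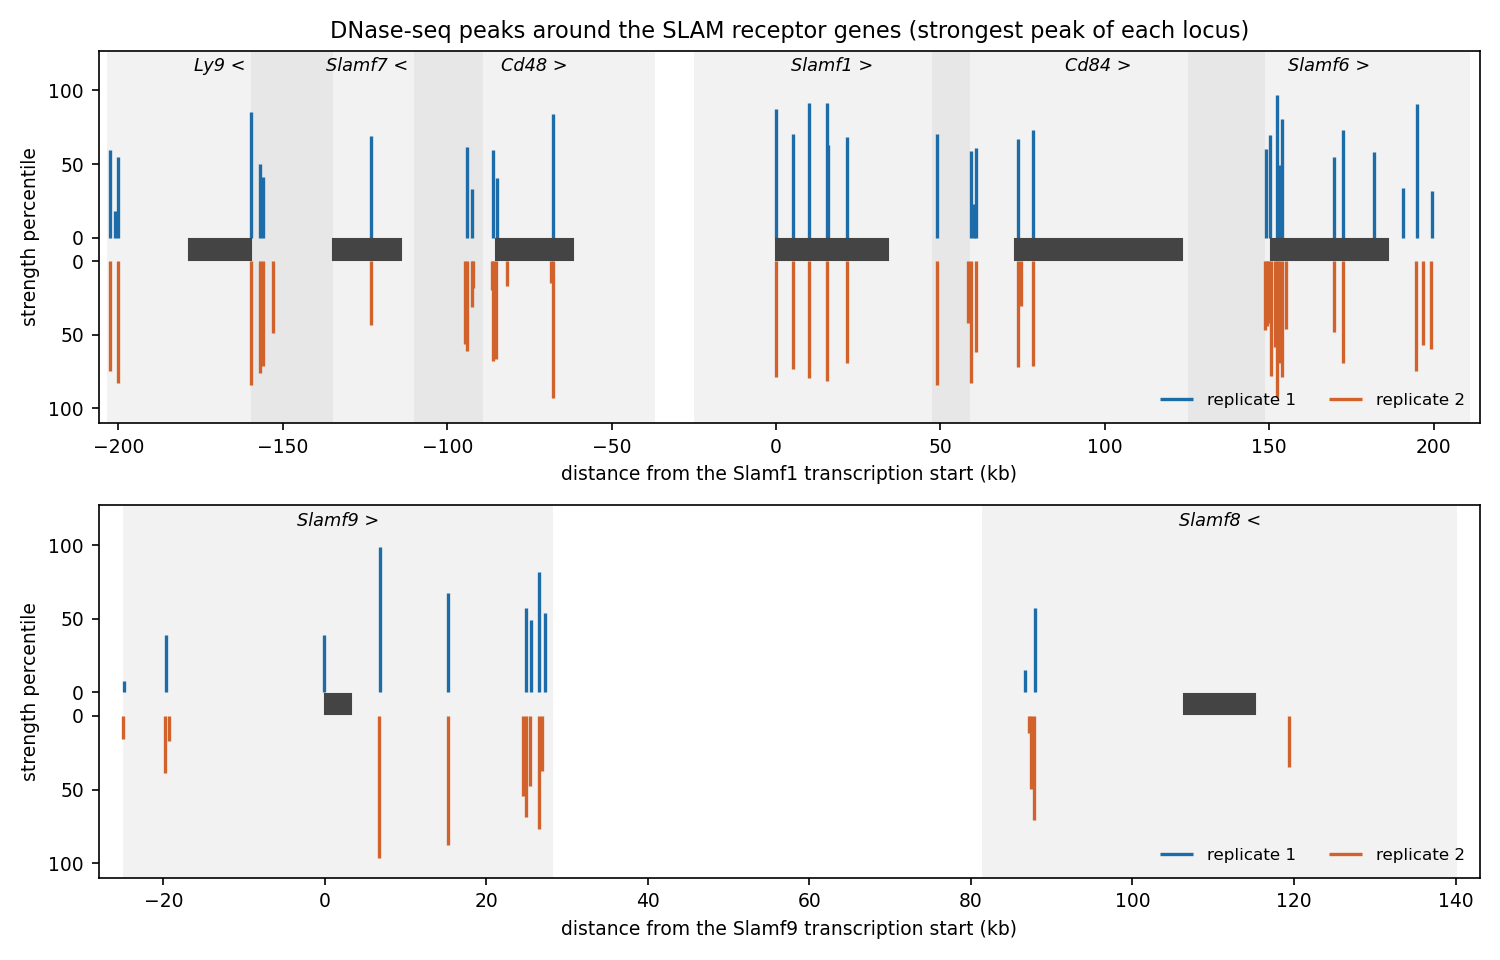
Peaks around the 8 genes, as the strength percentile of the strongest peak of each locus in replicate 1 (upward) and replicate 2 (downward), against distance in kb from the Slamf1 start (top) or the Slamf9 start (bottom). Dark boxes are gene bodies, with arrowheads for their strand, and grey bands the windows, darker where they overlap; the most crowded group is at the start of Slamf6, and the bodies of Slamf9 and Slamf8 are empty.

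Peaks of both replicates that overlapped were merged into loci, which gave 66 in the windows. Of these, 37 had a peak in both animals, 9 in replicate 1 only and 20 in replicate 2 only. Each locus was placed by the midpoint of its strongest peak, averaged over the replicates that had a peak. By this point, 6 were at a member promoter, 15 in a member intron and 2 in a member exon. Another 6 were at the start of another gene, 11 in the body of another protein-coding gene and 26 between protein-coding genes, 5 of them inside a non-coding gene. Both animals had the locus at 5 of 6 promoters, 10 of 15 introns and 12 of the 26 places between genes.

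Slamf1 held shared loci in introns 1, 3 and 4 and in exon 3. In intron 3 the locus chr1:171782601-171782840, 15583 bp into the gene, had a strength of 6.15 (percentile 91.5) in replicate 1 and 1.91 (81.2) in replicate 2. Here the ETS string CCGGAA and the reverse complement of the RUNX string TGTGGT both lay wholly under a footprint of each animal, in the run of capitals of its sequence. ETS and RUNX proteins are transcription factor families active in T cells. Its neighbour in the same intron, at percentile 62.7, was found in replicate 1 only and was the strongest locus limited to that animal.

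An opening over coding sequence was found 10093 bp into Slamf1. The locus chr1:171777061-171777340 overlapped 259 bp of coding exon 3 and had a strength of 6.06 (percentile 91.3) in replicate 1 and 1.72 (79.0) in replicate 2. Intron 1 (percentiles 70.7 and 72.9) and intron 4 (68.2 and 69.2) held 1 shared locus each. At the promoter and at the loci of exon 3 and intron 3, replicate 1 ranked higher than replicate 2, and in introns 1 and 4 it ranked lower.

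In the Cd48 body the strongest opening was in intron 2, 17185 bp from the start, at chr1:171699081-171699300. Its strength was 3.14 (percentile 84.0) in replicate 1 and 4.11 (92.5) in replicate 2. It outranked the promoter of the same gene in both animals, and it was the strongest distal locus of the cluster in replicate 2. In it, 3 of the 4 footprints of replicate 1 overlapped one of replicate 2. None of the 15 motifs searched lay in a footprint of both animals at this locus.

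Between Slamf1 and Cd84 a pair of loci ranked higher in replicate 2. The first, 23722 bp upstream of the nearest Cd84 start, had 1.52 (percentile 70.4) in replicate 1 and 2.23 (84.1) in replicate 2. The second, 13317 bp upstream at chr1:171826281-171826480, had 1.02 (59.0) and 2.04 (82.5). At this second locus the RUNX string TGTGGT and the NFY string CCAAT lay wholly under footprints of both animals, in the run of capitals of the sequence. The same held for the reverse complements of the Ikaros string TGGGAA and the MYB string AACTG, and that of an IRF string GAAANNGAA overlapped the edge. The MYB, Ikaros and NFY matches overlap one another in part. Replicate 1 had 1 footprint at this locus, with 32 bases common to both animals. All the matches named here therefore rest on the same footprint of that animal. Ikaros proteins and MYB are transcription factors of lymphocyte development.

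Within Cd84 itself, the largest gene of the cluster with 51022 bp, there were 2 peaks in replicate 1 and 3 in replicate 2, or 0.392 and 0.588 per 10 kb. Ly9 had 0.532 in both animals, so these genes were the sparsest of those with an open promoter. Beside the promoter, intron 1 held a shared locus 4562 bp from the nearest start, at percentile 73.0 and 71.1. The third peak of replicate 2 was also in intron 1, at percentile 30.3.

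The Slamf7 body had a single locus, found in both animals in an intron, with a strength of 1.43 (percentile 68.9) and 0.541 (43.0). It was the strongest distal locus of its window in replicate 1. By the mean of both percentiles the strongest is nearer to Ly9: it lies 2825 bp upstream of the Ly9 start, with 0.795 (percentile 49.9) and 1.51 (76.2). A match to the binding pattern of CTCF, a protein that organises chromatin loops, lay wholly inside a footprint of both animals there, overlapping the reverse complement of the Ikaros string TGGGAA, in the second run of capitals of the sequence. CTCF matches were also found in a peak 6740 bp upstream of Ly9 and in a peak 4142 bp upstream of Slamf8, both in replicate 2 only. By the same mean the strongest distal locus in the Ly9 window was at percentile 54.9 and 82.5, in the body of Cd244a, which encodes the CD48 receptor CD244. Another locus in that gene was at 59.7 and 74.6, so their order changed between the animals.

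At the far end of the cluster the strongest openings lay at or in other genes. The strongest locus of all windows, chr1:172482001-172482240, had a strength of 18.3 (percentile 98.5) in replicate 1 and 6.37 (96.7) in replicate 2 and lay at the start of Igsf9, 6772 bp from the Slamf9 start. By the mean of both percentiles the strongest distal locus of the Slamf9 window lay 618 bp downstream of the nearest Tagln2 start, in the body of that gene, at percentile 81.6 and 76.7. In replicate 2 a locus in the body of Igsf9 ranked higher, at 88.0 (67.6 in replicate 1). That of the Slamf8 window lay in the body of Vsig8, at percentile 57.1 and 70.6. The bodies of Slamf9 and Slamf8 had no peak and no footprint in either animal.

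Past the 3′ end of Slamf6, 44137 bp from its nearest start, the locus chr1:171961541-171962040 between genes had 5.55 (percentile 90.6) in replicate 1 and 1.40 (74.3) in replicate 2. Together with the loci of Cd48 intron 2, Slamf1 intron 3, Slamf1 exon 3 and Slamf6 intron 1 it made up the 5 strongest distal loci found in both animals, ordered by the mean of both percentiles. All 5 lie in or past the 3 genes Slamf1, Cd48 and Slamf6. The strongest locus of replicate 2 only was nearby at chr1:171966331-171966540, with 0.841 (percentile 59.5).

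Distal peaks, whose midpoint is over 500 bp from any annotated TSS, were counted per 100 kb of window. Slamf6 was highest with 12 peaks in replicate 1 and 14 in replicate 2, or 15.2 ± 1.65 (SD, n = 2) per 100 kb, at percentile 92.0 of all genes. Slamf9 followed with 10.3 ± 1.33, from 5 and 6 peaks that lie outside its body. Slamf7 had 9.20 ± 3.0 (5 and 8 peaks) and Cd48 had 8.87 ± 4.83 (4 and 9 peaks), with the widest spread between animals. Ly9 had 5 peaks and Slamf1 had 6 in both animals, which gave 7.27 and 7.14. Cd84 had 5.44 ± 0.70 and Slamf8 5.10 ± 2.40.

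Slamf6 was above every other member in each animal, whereas the order of Slamf9, Slamf7 and Cd48 changed between the animals. The median of the members was 8.07 per 100 kb (7.11 in replicate 1 and 9.27 in replicate 2), and the median of all genes was 4.51 (3.80 and 4.98). All 8 members lay above the median of all genes by their mean. This position depends on the width of the window. With 100 kb flanks, where the windows overlap more, all 8 still lay above it, with medians of 7.89 and 4.79. With 10 kb flanks the member median was 4.45 and that of all genes 4.24, and 4 of 8 members lay above it. Slamf6 then had 20.7 and Cd48 15.0, whereas Slamf9 had 0 and Slamf8 1.74. With 25 kb flanks, Slamf6 fell to 9.92 under the stricter peak list and to 9.34 with promoters of 2000 bp. It stayed the highest member in both, where the medians of all genes were 2.75 and 2.64.

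**Figure D3:**
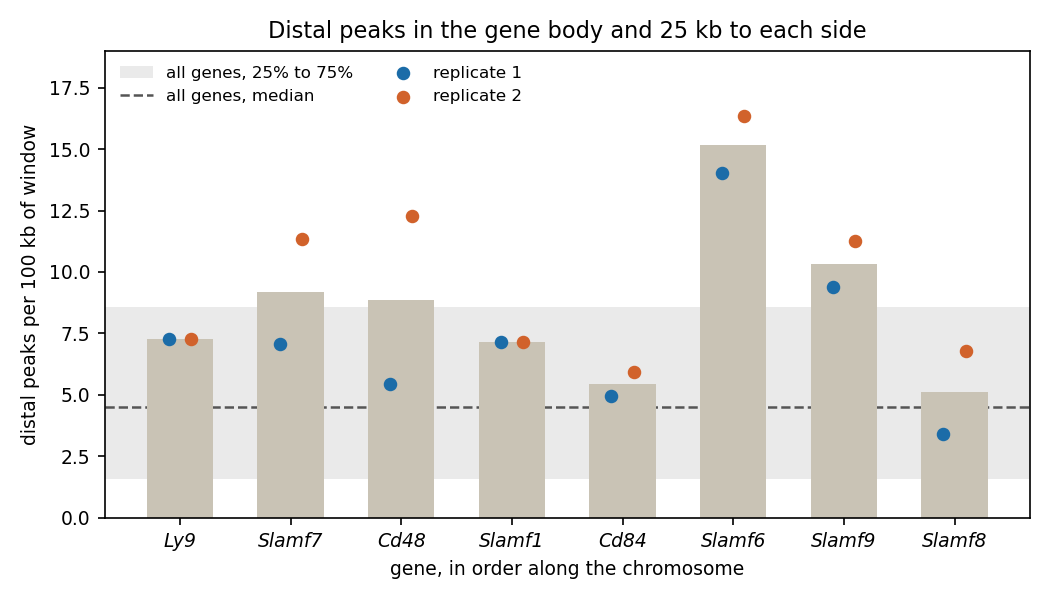
Distal peaks per 100 kb of window (vertical axis) for the 8 genes in chromosome order; bars are means of 2 replicates and points the replicates, with the median (dashed) and the 25% to 75% range (grey) of all genes. Slamf6 reaches 14.0 and 16.3, above the grey range of 1.56 to 8.57, and the Cd48 points are the farthest apart.

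The animals were compared locus by locus. Of the replicate 1 peaks in the windows, 42 of 51 overlapped a peak of replicate 2, or 82.4% (95% exact binomial interval 69.1 to 91.6%), against 75.2% of all replicate 1 peaks. Of the replicate 2 peaks 40 of 60 were shared, or 66.7% (53.3 to 78.3%), against 66.4%. Both intervals include the value of all peaks. Intervals cover counting error only.

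Loci found in both animals were the stronger ones, with median percentiles of 67.2 and 71.6, against 38.9 for those found in 1 animal, none of which exceeded 62.7. Across the 37 shared loci Pearson's r of the percentiles was 0.743 and Spearman's rho 0.661. The points share 2 libraries and their base composition, so this is a description. At a percentile of 75 or more there were 10 of these loci in replicate 1 and 15 in replicate 2, and 9 were common to both. Footprints agreed less: 70 of 168 replicate 1 footprints overlapped one of replicate 2, or 41.7% (34.1 to 49.5%, against 50.8% of all), and 74 of 190 in the other direction, or 38.9% (32.0 to 46.3%, against 45.5%). For footprints the value of the whole genome lay above the interval in replicate 1 and inside it in replicate 2.

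**Figure D4:**
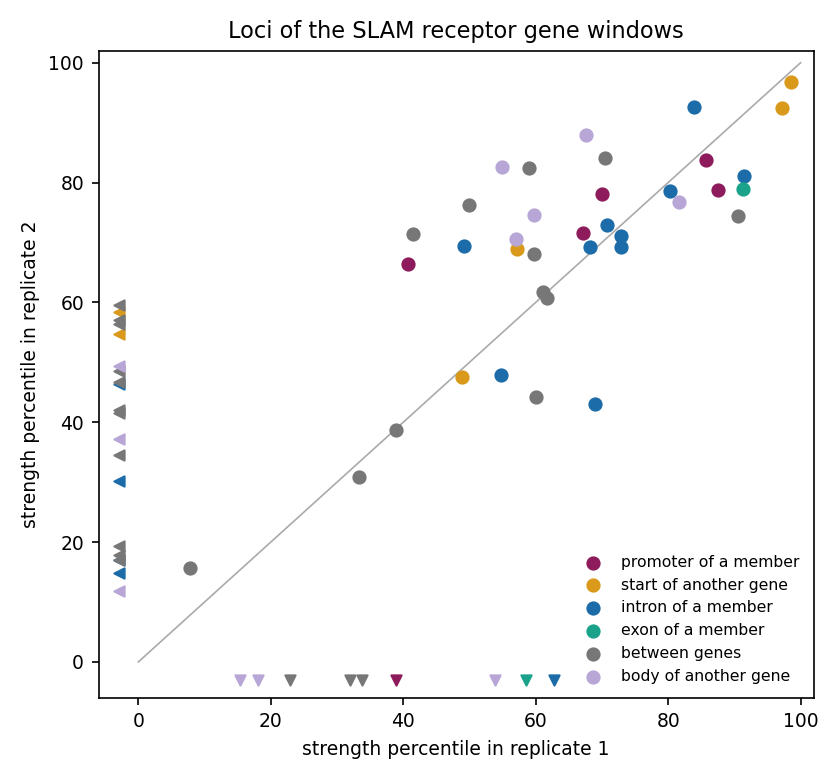
Strength percentile of each of the 66 loci in replicate 1 (horizontal) and replicate 2 (vertical), coloured by position; triangles at the margins are loci found in 1 animal. The shared loci follow the diagonal, and the margins hold no locus above a percentile of 62.7.

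Footprints in the windows were short, with a median width of 9 bp in both replicates, and 90.5% and 91.6% of them lay in peaks, against 83.7% and 84.4% over the genome. A peak of the windows held 2.98 footprints on average in replicate 1 and 2.90 in replicate 2, against 2.40 and 2.55 over all peaks. No footprint was found in 2 of 51 window peaks of replicate 1, where this held for 16230 of all 97051 peaks, and in 10 of 60 of replicate 2, where it held for 23442 of 108010. The window peaks were also wider, with medians of 200 and 237.5 bp against 188 and 200 bp over all peaks. They were stronger too, at median percentiles of 60.0 and 67.2 against 50. Whether footprints per peak differ at equal width and strength was not tested.

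Sequence motifs were searched on both strands in the peaks. For factors of T cell development these were the strings CCGGAA or AGGAAG for ETS, TGTGGT for RUNX, CTTTGA for TCF/LEF, and either CAGCTG or CAGGTG for the E-box. MYB was given by AACGG or AACTG, Ikaros by TGGGAA and GATA factors by the string AGATAA. Factors of activated and of other cells were given by TGA and TCA around any base for AP-1, by GAAANNGAA for IRF, by GGGNNTTTC for NF-kB, by TTCNNNGAA for STAT and by GAGGAAGT for PU.1. The last contains the ETS string AGGAAG. SP/KLF was given by GGGCGG and NFY by CCAAT, both frequent at promoters, and CTCF was searched by its binding pattern. A match is a string of letters and not a bound site. To hold length constant, the 200 bp around the midpoint of every peak were compared. RUNX strings were in 23.5% of the window peaks in replicate 1, where all peaks gave 18.8%, and in 26.7% in replicate 2, where all peaks gave 17.5%. ETS strings were in 43.1% and 38.3%, against 38.9% and 34.9%, and NF-kB strings in 9.80% and 10.0%, against 2.95% and 2.88%. The NF-kB share rests on few peaks: over whole peaks it came from 4 in replicate 1 and 6 in replicate 2. Its mean over whole peaks, 8.92%, fell to 4.89% under the stricter peak list.

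Fewer window peaks than peaks in general held E-box strings (31.4% and 21.7%, against 39.5% and 33.3%), SP/KLF strings (11.8% and 11.7%, against 20.3% and 17.0%) and CTCF matches (1.96% and 5.00%, against 5.39% and 6.23%). The same held for Ikaros strings (13.7% and 11.7%, against 15.7% and 16.7%). Of 15 motifs, 10 were at higher and 4 at lower shares in both animals. Both animals were scored on the same reference sequence, in peaks that largely overlap, so their agreement in direction is not independent. TCF/LEF strings were higher in replicate 1 only, at 17.6% against 13.2%, with 11.7% against 13.1% in replicate 2. Each share rests on 51 or 60 peaks, and no test was made.

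**Figure D5:**
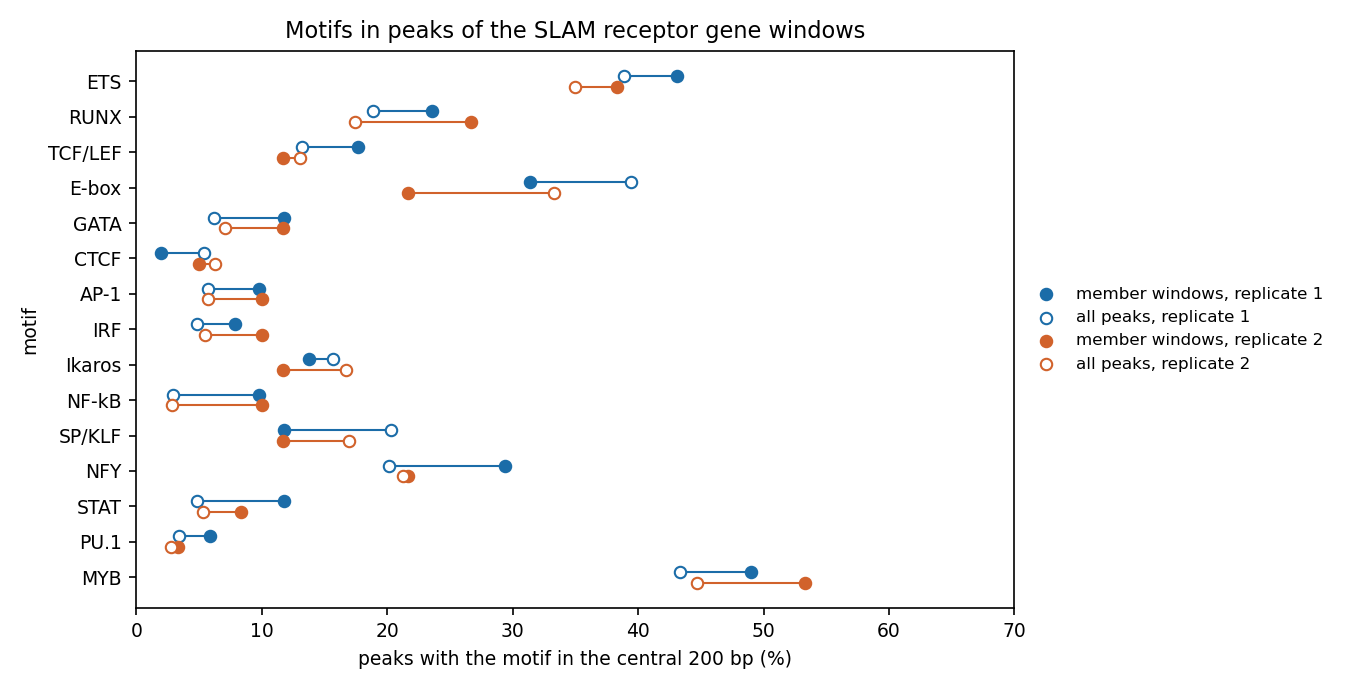
Share of peaks with each motif in their central 200 bp (horizontal axis, percent) for peaks in the windows (filled) and all peaks of the replicate (open). NF-kB, RUNX and STAT strings have filled points to the right in both animals, and E-box and SP/KLF strings to the left.

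In the windows 28 motif matches overlapped a footprint of both animals, in 18 loci, and 17 of these, in 11 loci, lay wholly inside. Beside those described, they include an ETS string at the Cd84 promoter, a TCF/LEF string 1226 bp upstream of Slamf6 and SP/KLF strings in the introns of Slamf7 and Slamf1. These matches are examples. Per animal, 15.2% and 18.4% of ETS strings in the window peaks overlapped a footprint, against 23.1% and 19.4% over all peaks. For RUNX strings it was 18.8% and 18.2%, against 27.4% and 20.2%. AP-1 and STAT strings were also lower in both animals, and CTCF, Ikaros, NF-kB and PU.1 strings higher. The higher shares rest on few matches in the window peaks of replicates 1 and 2. There were 1 and 3 for CTCF, 2 and 3 for PU.1, 5 and 7 for NF-kB, and 12 in each for Ikaros. These are too few for a difference to be read. No AP-1, GATA or STAT string overlapped a footprint of both animals. Each occurred only 6 to 9 times in the window peaks of a replicate, too few for this absence to be read.

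Among 12 other genes of the pathway, 9 had an open promoter, beside 58.0% of all genes. They were Sh2d1a (percentiles 89.2 and 82.4), the kinases Fyn (98.97 and 97.7), Lck and Prkcq, the phosphatases Ptpn6, Ptpn11 and Inpp5d, the adhesion receptor Cd2, and Zbtb16 (51.4 and 42.1), which encodes PLZF, a transcription factor of natural killer T cells. Not open were Cd244a and the genes of the EAT-2 adaptors, Sh2d1b1, with a peak at percentile 4.36 in replicate 2 only, and Sh2d1b2. The receptor Cd244a and both EAT-2 adaptor genes are known from natural killer cells.

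The 23 other protein-coding genes from 100 kb before the cluster to 100 kb after it had 13 open promoters. That is 56.5%, near the 58% of all genes. Their median was 7.66 distal peaks per 100 kb, beside 8.07 for the members. Other gene clusters of lymphocytes gave different counts, again beside 58% open among all genes. All of Cd28, Ctla4 and Icos were open, with 8.88 distal peaks per 100 kb, as were Cd3e, Cd3d and Cd3g, with 31.2. Of the Gimap genes, which encode GTPases of lymphocytes, 7 of 8 were open, with 13.7, and of the killer lectin receptor genes 3 of 26, with 1.81.

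The tissue label was checked against marker genes. All 10 thymocyte markers had an open promoter, beside 58% of all protein-coding genes. Of markers of other cells, 2 of 6 were open for B cells (Cd79b, Ebf1), 3 of 8 for macrophages and dendritic cells (Cd68, Itgam, Lyz2), 2 of 4 for natural killer cells (Eomes, Klrd1), 2 of 6 for thymic epithelium, 2 of 4 for endothelium and 0 of 4 for erythroid cells. Those not open include Csf1r and Spi1 of the macrophage list and Klrb1c and Ncr1 of the natural killer list. The lists are short, and 2 of 4 lies near the share of all genes. Counts for other cells therefore do not show which of them were present. Which cells gave the peaks of Slamf7, Slamf8 and Slamf9 windows was not tested.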

How the data were processed

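Peaks, false discovery rates and footprints were deposited by the authors for each of 2 thymus samples, on mm10; per the file listings deposited with the samples, each was made from the sample's own alignments, so replicates were not pooled. No label or header names the aligner, the callers, the handling of CAST/EiJ reads or the read depth (not given in the sources used here), so precision from depth is unknown. The signal of a peak (column 7, called strength) is the authors' value. Among peaks with a strength under 1, every signal value was a multiple of 0.00519 (replicate 1) or 0.00576 (replicate 2) to within 0.05 of that step, and strengths were ranked only within a replicate. The deposited p-value column of the rate track holds q-values and lists only runs under 0.05; that of the footprints is a constant 0.01, the threshold, and was left aside.

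The longer peak list was used, and the shorter, stricter one as an alternative. Overlap meant at least 1 bp, a promoter 500 bp to either side of any TSS (GENCODE M21 basic), and a window the gene body with 25 kb to each side; 27 duplicated symbols were left out. Peaks were assigned to promoters and windows by their midpoint. Sequence came from GRCm38.p6, whose chromosomes are those of mm10. With 1 group of 2 samples no test was made, and values are given per replicate, as mean ± SD (n = 2), or as shares with an exact 95% binomial interval. The 8 genes, the gene lists and motifs were chosen with earlier results of these data known. All 8 genes are named, with their promoter peaks, the strongest distal locus of each window, the 5 strongest shared distal loci, the strongest locus of 1 replicate only, and the peak with most footprints. The 200 bp comparison of motifs was added after the data were seen. The counting code was tested on simulated data. Python 3.11.15, numpy 2.4.6, pandas 2.3.3, scipy 1.17.1 and matplotlib 3.10.9 were used.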

Additional observations from a re-analysis of the deposited data

How the results depend on the processing

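Of 27 recomputed summary values of the cluster, 21 stayed within the spread between replicates, or within 1.5 times for counts, and 6 moved. With 100 kb flanks the mean number of peaks went from 55.5 to 91 and that of footprints from 179 to 302.5, because the windows are longer. The median density of distal peaks, 8.07 per 100 kb, fell to 6.25 with the stricter peak list and to 4.45 with 10 kb flanks; the medians of all genes were then 2.75 and 4.24. When sharing needed 50% overlap in both directions, it dropped from 74.5% to 59.9% of peaks and from 40.3% to 25.2% of footprints. Open promoters numbered 5, with 4 under the stricter list (Cd48 lost) or at outermost starts only (Cd84 lost) and 5 to 6 with either replicate left out, Slamf9 being open without replicate 2. Leaving out a replicate gave 51 to 60 peaks, 7.11 to 9.27 distal peaks per 100 kb and 168 to 190 footprints; shared percentages need both replicates and could not be recomputed. Of the alternatives for single genes, 18 of 23 promoter percentiles and 22 of 40 densities stayed within the spread, as did 46 of 60 motif shares. These counts include the alternatives with a replicate left out, which could not move. The value of 1 replicate always lies within the SD around the mean of 2. The 5 percentiles, 18 densities and 14 motif shares that moved all came from the other alternatives, so the counts overstate how stable these values are. No paired analysis was possible because there is 1 group. The unknown depth limits statements on promoters without a peak, and SDs of 2 animals are imprecise.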
